A study of Homo sapiens with 2 samples.

Results

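The genes described here are SCGN, which encodes secretagogin, and 8 other genes of EF-hand calcium-binding proteins, namely CALB1, CALB2, CALM2, CALM3, NCS1, HPCAL1, HPCA and VSNL1. They were chosen by name and make up 9 genes set against a table of 19989 measured genes. Of the 9 genes, 8 had a value in the table, and CALB2, which had none, counts as not detected. Expression was measured in hNCI-H716 cells, an established human line from a colorectal adenocarcinoma of the cecum that serves as a model of the intestinal L-cell. The cells were seeded on Matrigel, held in DMEM with fetal bovine serum for 48 h at either low (5.5 mM) or high (25 mM) glucose, and their polyadenylated RNA was sequenced. There was 1 library per glucose concentration, so a difference between them has no replicate check, and each one given here compares the 2 libraries and not the concentrations. The low glucose library held 21757709 estimated counts and the high glucose library 19456501, and 1 count was worth 0.0460 and 0.0514 CPM (counts scaled to a library total of 1000000), respectively. Intervals are at 95% and cover counting error only.

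EF-hand proteins bind calcium in short loops between a pair of helices. Calmodulin, present in nearly all cells, changes its shape when it binds calcium and then acts on kinases, phosphatases, adenylyl cyclases and channels. Secretagogin and the calbindins belong to the hexa EF-hand group. Secretagogin is found in neuroendocrine cells, where it binds SNARE proteins and takes part in hormone release, while the calbindins are best known as calcium buffers of neurons. NCS1, hippocalcin (HPCA), HPCAL1 and VSNL1 belong to the neuronal calcium sensor family, whose members carry a fatty acid at the N-terminus and bind membranes.

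The label of the cells was first set against marker genes. Of 15 L-cell and enteroendocrine markers, 12 had a value, and their summed level was 4550.1 CPM in the low and 4363 CPM in the high glucose library. GCG, the gene of proglucagon, was the most abundant, at 1954 CPM in the low and 1808 CPM in the high glucose library, and the granule genes CHGA and CHGB and the prohormone convertase gene PCSK1 were all above 500 CPM in each library. PYY, NEUROD1 and NKX2-2 had no value. Among 10 intestinal epithelial markers, 9 had a value, which summed to 500.1 and 565 CPM in low and high glucose. KRT8 was the most abundant of these, with a mean of 280.4 CPM, whereas CDH1 and KRT20 were near 0, with means of 0.112 and 0.0812 CPM. EPCAM, KRT19 and LGALS4 were also low, with means of 3.44, 1.24 and 0.883 CPM. The cells therefore carried the proglucagon transcript of the L-cell and abundant transcripts of CHGA, CHGB and PCSK1, but little of SCG5. They lacked a value for PYY, the gene of another L-cell hormone, and for NEUROD1 and NKX2-2.

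Markers of other cell types were measured as well. Of 13 neuronal markers, 9 had a value, with sums of 96.0 and 93.4 CPM in low and high glucose and MAP2 as the most abundant, at a mean of 32.9 CPM, while RBFOX3, NEFM, SLC17A6 and ELAVL4 had none. Photoreceptor markers summed to 2.25 and 1.33 CPM, mostly NRL, and PDE6B, GNAT1 and CRX had no value. Blood cell markers summed to 441 and 414 CPM, nearly all from LYZ, which is not specific to blood, and PTPRC, CD3E and HBD had no value. Fibroblast and endothelial markers summed to 997 and 928 CPM, of which COL3A1 gave a mean of 778 CPM and LUM 179 CPM, while COL1A1 was near 0 and DCN and PDGFRB had no value. The part of these genes in the levels of the calcium sensors was not tested. In bulk RNA, fewer cells of a type and less RNA per cell cannot be told apart.

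CALM2 and CALM3 are shown first by sequence, because they encode the same protein and are told apart by RNA alone. In the GENCODE v29 annotation of GRCh38, both code for 149 residues, of which 0 differ. Of the 447 coding bases, 82 differ (81.7% identity), and the longest run without a difference is 17 bases. The PROSITE pattern of the EF-hand loop matched 4 times in each, and 7 of the 36 bases differ in each of the 4 loops. The first and the last loop are given below 5′ to 3′ with the bases that differ in capitals. All lie in coding exons, and the last loop is split by an intron in both genes.
CALM2, loop 1, chr2:47162601-47162636, minus strand, exon 3: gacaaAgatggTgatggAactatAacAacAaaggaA
CALM3, loop 1, chr19:46608223-46608258, plus strand, exon 3: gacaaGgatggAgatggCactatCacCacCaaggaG
CALM2, loop 4, chr2:47160803-47161756, minus strand, exons 5 and 6: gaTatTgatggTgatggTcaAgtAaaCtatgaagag
CALM3, loop 4, chr19:46608948-46609126, plus strand, exons 5 and 6: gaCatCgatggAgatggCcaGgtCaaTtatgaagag

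The reads were aligned at a length of 75 bases, and no window of this length is shared between the CALM2 and CALM3 transcripts. Of the 1228 such windows of CALM2, 8.1% also occur in other genes, namely the pseudogenes CALM2P2 and CALM2P3 and AC073283.3, and of the 2215 windows of CALM3, 7.0% occur in 1 other gene, AC093503.2. Under these names, none of the 4 other genes has a value in the table. Reads that fit several genes were divided by estimate, so the counts of CALM2 and CALM3 may be less certain than their intervals show. The windows stand for 1 read of each pair, and the other read can tell genes apart where a window does not. The remaining 7 genes shared no window with another gene. AC073283.3 overlaps CALM2 on the same strand over 102 bases (7.83% of the CALM2 transcript). HPCA overlaps TMEM54, a gene on the opposite strand, over 53 bases (3.61% of its transcript). The library kit does not mark strand, so reads cannot be assigned by strand in this overlap, nor in the 296 bases (12.9%) where AC093503.2 overlaps CALM3.

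The SCGN loops are printed next, since they set secretagogin beside its relatives. SCGN (chr6:25652201-25701783, plus strand, GRCh38) codes for 276 residues, and the loop pattern matched at residues 118 to 129, 162 to 173, 210 to 221 and 254 to 265. A stretch without a match says only that it lacks this pattern. Loops are numbered in the order of these matches, so the first match need not be the first EF-hand of the protein. Capitals mark the codons of loop positions 1, 3, 5 and 12, whose side chains usually bind the calcium ion. Loop 3 is split by an intron, and all 4 are coding.
SCGN, loop 1, chr6:25669526-25669561, plus strand, exon 5: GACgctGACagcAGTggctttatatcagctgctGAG
SCGN, loop 2, chr6:25681963-25681998, plus strand, exon 7: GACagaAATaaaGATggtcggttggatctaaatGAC
SCGN, loop 3, chr6:25689527-25691085, plus strand, exons 9 and 10: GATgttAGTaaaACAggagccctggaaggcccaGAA
SCGN, loop 4, chr6:25701264-25701299, plus strand, exon 11: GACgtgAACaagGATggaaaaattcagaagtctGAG

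The neuronal calcium sensors each held 3 matches, of which the first lies at residues 73 to 84 in all 4 proteins. This loop, again numbered by match and not by EF-hand, is given for the 4 genes, with the same codons in capitals, to show how alike they are at a shared position. All 4 proteins start with methionine and glycine, the form that N-terminal myristoylation needs, and the other 5 do not.
NCS1, loop 1, chr9:130217959-130219748, plus strand, exons 3 and 4: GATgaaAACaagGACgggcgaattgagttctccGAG
HPCAL1, loop 1, chr2:10419974-10420009, plus strand, exon 3: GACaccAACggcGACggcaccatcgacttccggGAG
HPCA, loop 1, chr1:32889115-32889150, plus strand, exon 2: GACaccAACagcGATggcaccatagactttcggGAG
VSNL1, loop 1, chr2:17649464-17649499, plus strand, exon 3: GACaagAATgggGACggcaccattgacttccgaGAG

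By alignment of the whole proteins, SCGN was 36.1% identical to CALB1 and 36.3% to CALB2, which were 56.6% identical to each other. CALB1 held 4 loop matches and CALB2 held 5. Against the calmodulins and the neuronal calcium sensors, SCGN had an identity of between 16.6% and 19.7%. Within the neuronal calcium sensors, HPCAL1 and HPCA were 94.3% identical, VSNL1 was 67.7% identical to HPCAL1, and NCS1 was 58.0% identical to HPCAL1. The 3 groups seen in the heat map of identity are therefore the calmodulin pair, the calcium sensors NCS1, HPCAL1, HPCA and VSNL1, and CALB1 and CALB2 with the more loosely related SCGN.

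**Figure D1:**
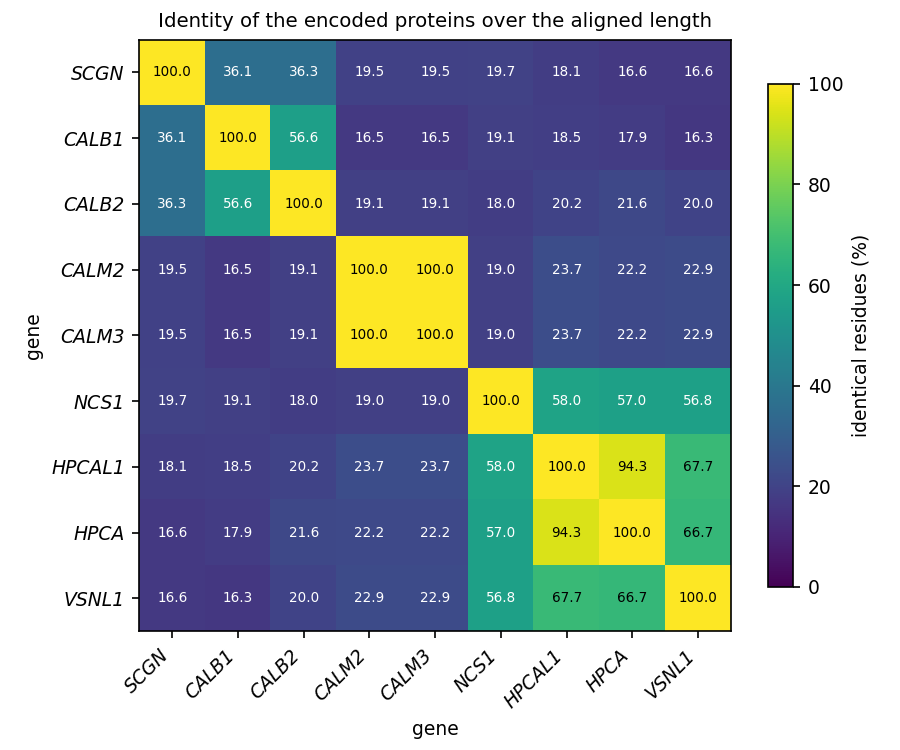
Heat map of the identical residues (%) over the aligned length between the proteins of the 9 genes, with the value written in each cell. CALM2 and CALM3 are at 100.0%, HPCAL1 and HPCA at 94.3%, and SCGN reaches at most 36.3%, with CALB2.

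Among the 9 genes, the calmodulins were the most abundant. CALM2 was at 704 CPM (Wilson interval 693 to 715) in the low glucose library and at 730.5 CPM (719 to 743) in the high glucose library. CALM3 was at 386 CPM (378 to 395) and 393 CPM (384 to 402), respectively. The intervals of the libraries lay apart for CALM2 and overlapped for CALM3. Levels of different genes were compared as CPM per kb of the longest protein-coding transcript. On this scale, CALM2 was at 541 CPM per kb in low and 561 in high glucose, and CALM3 at 169 and 172. The mean level of CALM2 was thus 3.24 times that of CALM3, and CALM2 gave 76.2% of the summed level of the pair in low and 76.6% in high glucose. These values rest on the length taken, and by the median transcript length the ratio was 1.38 and the shares were 57.7% and 58.2%. Transcripts for a single protein therefore came from CALM2 and CALM3 in nearly the same proportion in the 2 libraries. Of the 4 calmodulin-like genes listed beside them, CALML4 alone had a value, with a mean of 0.346 CPM per kb.

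With 367 and 397 estimated counts, SCGN was at 16.9 CPM (15.3 to 18.7) in the low and 20.4 CPM (18.5 to 22.5) in the high glucose library, and these intervals overlapped slightly. Per length, it was at 11.7 and 14.1 CPM per kb. Its mean of 12.9 CPM per kb stood at the 59.5 percentile of the 11289 genes that had a length and a mean of 1 CPM or more, whose median was 9.13 CPM per kb. By median transcript length it stood at the 44.1 percentile, below a median of 16.9. CALB1, the gene of calbindin, was far lower, at 1.58 CPM (1.12 to 2.19) in the low and 2.06 CPM (1.51 to 2.80) in the high glucose library, on 34.0 and 40.0 estimated counts. Both lie above the level that a count of 0 allows, which at 3 counts was 0.138 CPM in low and 0.154 CPM in high glucose. In CPM per kb, the mean of SCGN was 17.9 times that of CALB1, and 4.64 times by median transcript length. CALB2, the gene of calretinin, had no value. The authors took out genes with under 1 estimated count in the 2 libraries together, and the lowest such sum in the table was 1.01, so CALB2 lies under 1 count if it was left out by this step. Of the summed CPM per kb of SCGN and CALB1, SCGN gave 94.9% in low and 94.5% in high glucose, and 82.9% and 81.7% by median transcript length.

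The 4 chosen neuronal calcium sensors were all detected. VSNL1, which encodes visinin-like protein, was at 122 CPM (117 to 126) in the low and 139 CPM (133 to 144) in the high glucose library. NCS1, known as a partner of phosphatidylinositol 4-kinase and of the guanine exchange factor RIC8A, was at 142 CPM (137 to 147) and 151 CPM (146 to 156). HPCAL1 was at 64.4 CPM (61.1 to 67.9) and 62.1 CPM (58.6 to 65.6). HPCA, best known from hippocampal neurons, was at 10.0 CPM (8.76 to 11.4) and 8.65 CPM (7.43 to 10.05), while TMEM54 was at 35.0 and 30.7 CPM. The intervals of the libraries lay apart for VSNL1 and overlapped for NCS1, HPCAL1 and HPCA. Of the 10 listed genes of this family, 6 had a value and 5 had a mean of 1 CPM or more, the fifth being NCALD, at 78.2 and 86.5 CPM in low and high glucose. The summed level of these 5 genes was 134 CPM per kb in low and 142 in high glucose. VSNL1 gave the largest share of this sum, with 33.4% and 35.9%, and HPCA the smallest, with 5.10% and 4.16%. By median transcript length the sums were 355 and 387 CPM per kb, and NCALD gave the largest share, with 38.6% and 39.1%, followed by VSNL1 with 34.6% and 36.1%, while HPCA gave 1.92% and 1.52%. The recoverin gene RCVRN and the guanylate cyclase activators GUCA1A and GUCA1C, which belong to photoreceptors, had no value, nor had HPCAL4, while GUCA1B had 0.196 CPM in low and 0.166 CPM in high glucose, on 4 and 3 estimated counts.

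Ordered by mean CPM per kb, the genes ran from CALM2 (551), CALM3 (170.2), VSNL1 (47.8), HPCAL1 (32.6) and NCS1 (29.4) to SCGN (12.9), HPCA (6.36) and CALB1 (0.719). The order was the same in both libraries. Neighbours in this order had intervals that lay apart in both libraries, except HPCAL1 and NCS1, whose intervals overlapped in high glucose. By median transcript length in place of the longest, NCS1 came before HPCAL1. SCGN was thus sixth of the 8 detected genes on this scale, below NCS1, whose mean was 2.28 times as high (3.63 times by median transcript length), and above HPCA, of which its own mean was 2.03 times as high. CALM2 was at 42.8 times the mean of SCGN.

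**Figure D2:**
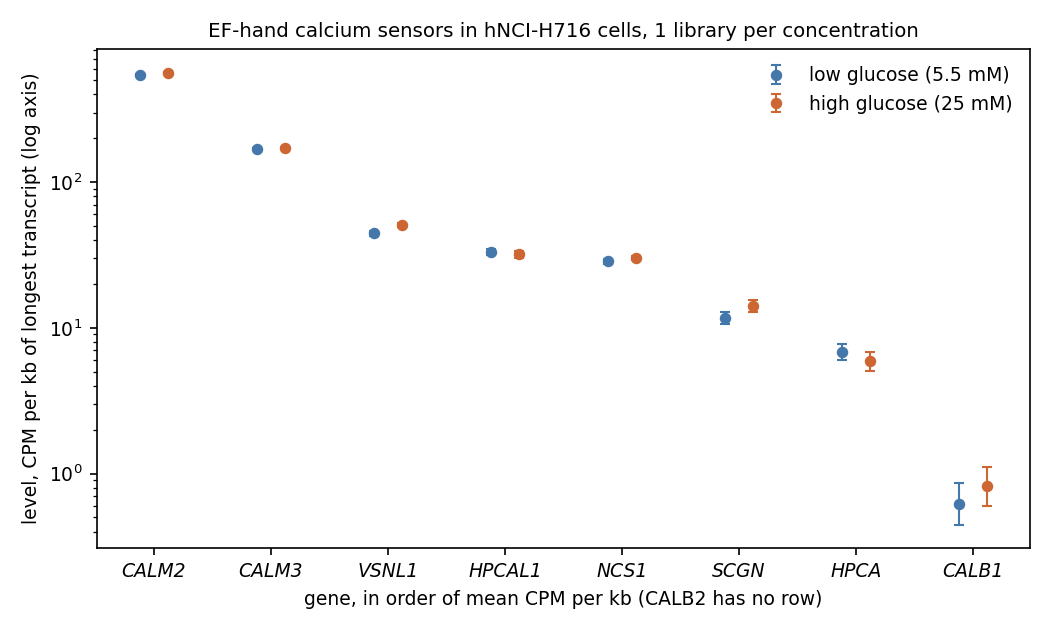
Level of each gene in CPM per kb (log axis) in the low (5.5 mM) and high (25 mM) glucose library, in order of the mean, with 95% Wilson intervals as bars. The levels run from 551 CPM per kb for CALM2 to 0.719 for CALB1, and the low and high glucose points of each gene lie close together against this range.

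Between the libraries, none of the 8 genes differed by a log2 ratio of 0.5 or more in size, a limit that 5.38% of the 13052 genes with a mean of 1 CPM or more passed in either direction. Fewer abundant genes pass it, 0.824% of the 9345 averaging 10 CPM or more, among which are 6 of the 8. SCGN had a log2 ratio of high to low glucose of 0.27 (exact binomial interval 0.06 to 0.48), or 20.6% more in high glucose. Of the 13052 genes, 83.0% had a smaller ratio in size. VSNL1 followed at 0.19 (0.11 to 0.27), NCS1 at 0.08 (0.01 to 0.16) and CALM2 at 0.05 (0.02 to 0.09). In all, the interval lay above 0 for 4 of the 8 genes, against 15.8% of the genes tested, and below 0 for 0 of the 8, against 15.9%. Abundant genes have narrow intervals, and among all 9345 genes averaging 10 CPM or more the interval left out 0, in either direction, for 38.4%. The ratio of CALM2 corresponds to 3.75% more in high glucose and rests on 15295 and 14234 estimated counts.

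The interval held 0 for the other 4 genes. CALM3 was at 0.02 (-0.02 to 0.07), and HPCAL1 at -0.05 (-0.17 to 0.06). HPCA was at -0.21 (-0.51 to 0.09) and CALB1 at 0.39 (-0.30 to 1.10). CALB1, with 34.0 and 40.0 estimated counts, thus had the largest ratio in size among the 8 genes but was not distinguishable from 0 at this depth. With a pseudocount of 1 CPM it was at 0.25 and SCGN at 0.26. Of the 8 genes, 6 had a ratio above 0 and 2 below, with a median of 0.07, where the median of all genes tested was -0.01. The genes that encode the same protein, CALM2 and CALM3, had ratios of 0.05 and 0.02 with overlapping intervals, and the closely related HPCAL1 and HPCA had intervals that both held 0.

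**Figure D3:**
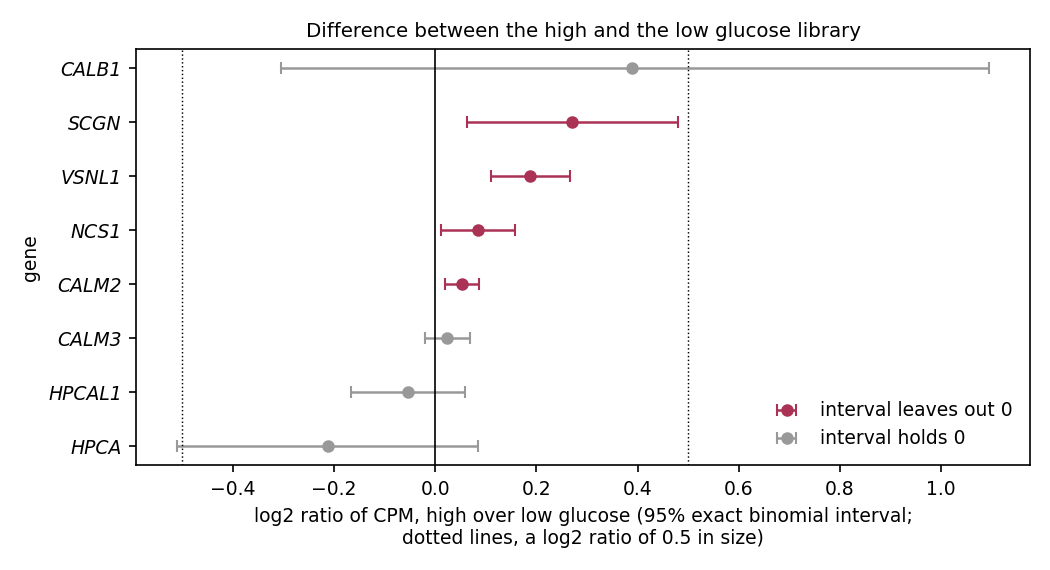
Log2 ratio of CPM in high over low glucose for the 8 genes with a value, with 95% exact binomial intervals, and dotted lines at 0.5 in size. The intervals of SCGN, VSNL1, NCS1 and CALM2 lie above 0, those of the other 4 hold 0, and no point passes the dotted lines.

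SCGN and its relatives were then placed among the EF-hand genes of 12 families. Of 87 listed genes, 58 had a value and 50 had a mean of 1 CPM or more. None of the 50 passed a log2 ratio of 0.5 in size, and 42 of them averaged 10 CPM or more, where 0.824% of all genes passed it. Their interval lay above 0 for 13 of the 50 and below 0 for 7, beside 15.8% and 15.9% of all genes, and their median ratio was 0.02. For all genes averaging 10 CPM or more, the interval left out 0, in either direction, for 38.4%. Without SCGN and its relatives, 9 of 42 EF-hand genes lay above and 7 below, with a median of 0.01. Ratios were within 0.31 of 0 for these 42 genes, with S100P at -0.31 (-0.45 to -0.17) and S100A4 at 0.31 (0.21 to 0.41) as the extremes.

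Levels per kb depend on the transcript length taken, and by the median length they were over 1.5 times as high for 23 of the 50 genes. By the longest, the S100 proteins, small dimeric EF-hand proteins, reached furthest. S100A6 had a mean of 1165 CPM per kb, 90.4 times that of SCGN, S100A11 was at 511 and S100A10 at 307, while 7 of the 19 listed S100 genes had no value. CAPNS1, the small calpain subunit and a penta EF-hand protein, was at 299 CPM per kb, followed by PDCD6 at 82.2 and PEF1 at 53.3, and all 7 genes of this group had a value. CABP7 led the CaBP family at 89.6 CPM per kb, 6.95 times SCGN, with CABP4 at 1.08. PPP3R1, the regulatory subunit of calcineurin, was at 74.7 CPM per kb, CIB1 at 40.1 and CHP1 at 34.8. SCGN thus lay below the leading gene of each of these 4 families in CPM per kb. The KChIP channel subunits, of which KCNIP4 was highest at 0.415 CPM per kb, lay under it, and none of the 3 parvalbumin genes PVALB, OCM and OCM2 had a value.

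**Figure D4:**
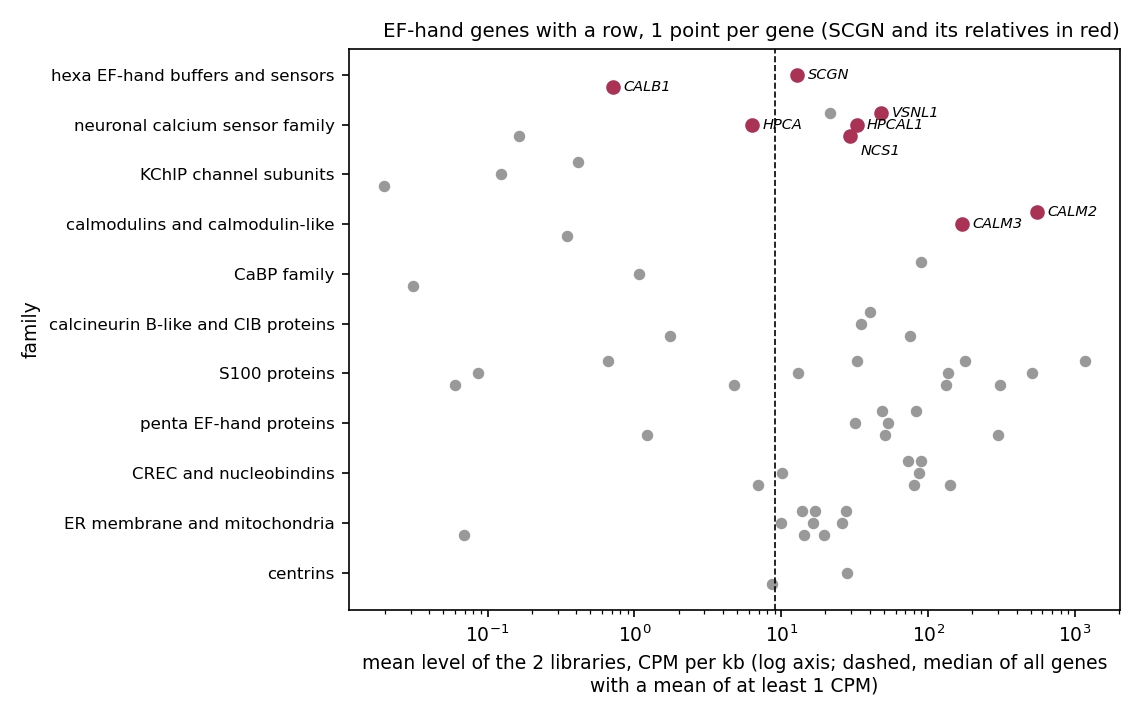
Mean level in CPM per kb (log axis) of the 58 EF-hand genes with a value, 1 point per gene and 1 line per family, with SCGN and its 7 detected relatives in red and a dashed line at 9.13, the median of all genes with a mean of 1 CPM or more. CALM2 and CALM3 lie near the upper end with S100A6, and SCGN lies just right of the dashed line at 12.9, with each gene taken at its longest transcript.

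EF-hand proteins of the secretory pathway, the ER membrane and mitochondria formed further groups. In the secretory pathway, SDF4, also called Cab45 and resident in the Golgi, had a mean of 141 CPM per kb, with RCN1 at 89.4 and CALU at 87.2, and all 7 listed genes had a mean of 1 CPM or more. Their interval lay below 0 for 3 genes, SDF4 at -0.07, NUCB1 at -0.16 and NUCB2 at -0.07, and above 0 for CALU at 0.06, so for 42.9% and 14.3% of the 7, beside 15.9% and 15.8% of all genes, and the median ratio was -0.07, beside -0.01. For all genes averaging 10 CPM or more, the interval left out 0, in either direction, for 38.4%. Of the genes listed under the ER membrane and mitochondria, SLC25A13 was at 27.7 CPM per kb, with MICU2 at 26.0 and EFHD2 at 19.4. Where each listed protein resides in these cells was not tested. Of the 8 tested, the interval lay above 0 for 2 (25.0%, beside 15.8% of all genes), LETM1 at 0.23 (0.10 to 0.35) and SLC25A24 at 0.17 (0.06 to 0.27), and the median was 0.07. The centrins CETN2 and CETN3 were at 28.2 and 8.69 CPM per kb, and the interval of each held 0.

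**Figure D5:**
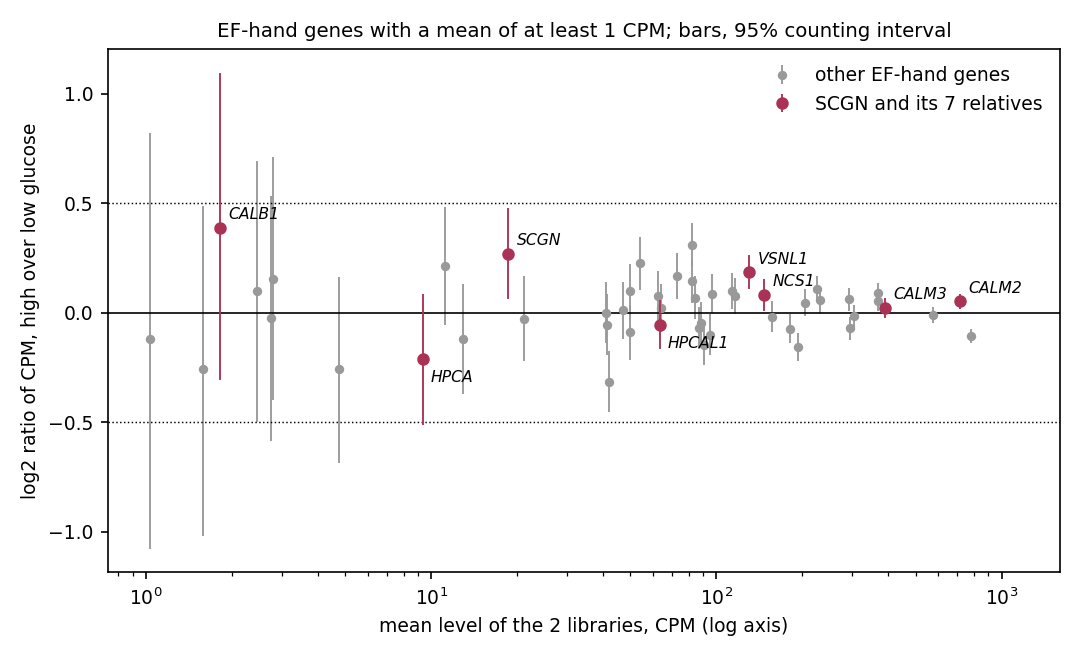
Log2 ratio of high over low glucose against mean CPM (log axis) for the 50 EF-hand genes with a mean of 1 CPM or more, with 95% exact binomial intervals and dotted lines at 0.5 in size. All points lie between the dotted lines, and the intervals are widest for low genes such as CALB1, at a mean of 1.82 CPM.

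The genes that calmodulin acts on were present in large part, with 19 of 25 having a value and 17 a mean of 1 CPM or more. By the longest transcript, the catalytic calcineurin subunit PPP3CA was highest at a mean of 52.8 CPM per kb, followed by the kinases CAMK2D at 38.4 and EEF2K at 12.2. Their interval lay above 0 for 5 of the 17 genes (29.4%) and below 0 for 2 (11.8%), where all genes gave 15.8% and 15.9%. All genes averaging 10 CPM or more gave 38.4% in either direction. Of the 2 calmodulin targets below 0, CAMK2B was at -0.22 with an interval from -0.45 to -4.41e-05, which ends very close to 0. The count for this list was not recomputed under other scalings. The median was 0.04, and none passed a log2 ratio of 0.5 in size, against 5.38% of all genes and 0.824% of those averaging 10 CPM or more, as 13 of the 17 do. NOS3, not tested at a mean of 0.992 CPM, was at -0.95 (-2.03 to 0.04). PPP3CA was at 237 CPM in the low and 258 CPM in the high glucose library, a log2 ratio of 0.12 (0.07 to 0.18). CAMK2D went the other way, with 232 and 216 CPM and a ratio of -0.10 (-0.16 to -0.04).

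Genes of proteins that bind secretagogin or NCS1 were all detected, and 9 of 10 had a mean of 1 CPM or more. ACTB was at 2998 CPM per kb, the motor gene KIF5B at 107 and the SNARE gene SNAP23 at 22.8, against 12.9 for SCGN. Among these 9, the interval lay above 0 for 4 and below 0 for 4 (44.4% each, with 15.8% and 15.9% over all genes), and the median ratio was -0.01, as over all genes. For all genes averaging 10 CPM or more, the interval left out 0, in either direction, for 38.4%. SNAP25, a SNARE partner of secretagogin, was at 27.95 CPM in the low and 22.8 CPM in the high glucose library, a log2 ratio of -0.29 (-0.47 to -0.11), whereas SNAP23 was at 57.1 and 65.7 CPM, a ratio of 0.20 (0.09 to 0.32). PI4KB, a partner of NCS1, was at 79.1 and 85.3 CPM, a ratio of 0.11 (0.01 to 0.21), and RIC8A was at 66.2 and 65.8 CPM with an interval that held 0. The partners of secretagogin and NCS1 thus showed no common direction between the libraries.

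Marker genes also differed between the libraries, and their part in the ratios of the calcium sensors was not tested. Of the 11 L-cell and enteroendocrine markers with a mean of 1 CPM or more, the interval lay below 0 for 4 (36.4%) and above 0 for 1 (9.09%), and over all genes for 15.9% and 15.8%. Intervals are narrower for abundant genes, and among all genes averaging 10 CPM or more they left out 0, in either direction, for 38.4%. GCG had a ratio of -0.11 (-0.13 to -0.09), CHGA of -0.11 and CHGB of -0.06, and the granule gene SCG5 passed the limit of 0.5 at -0.56 (-0.98 to -0.15), with 6.09 CPM in low and 4.12 CPM in high glucose. SCGN, with a ratio of 0.27, was thus on the other side of 0 from these 4 genes. PCSK1 was the marker above 0, at 0.11 (0.08 to 0.15). Among 6 tested epithelial markers, the interval lay above 0 for 4 (66.7%) and below for 0, with VIL1, the villin gene, at 0.61 (0.38 to 0.85) from 11.7 to 17.8 CPM, KRT8 and KRT18 at 0.11 and 0.22 and CDX2 at 0.33. KRT19 was at -0.59 with an interval from -1.50 to 0.27. Of the markers of other cell types, NRL, the 1 tested photoreceptor marker, was at -0.79 (-1.60 to -0.03) on 43.1 and 22.3 estimated counts. LYZ, the 1 tested blood cell marker, was at -0.09, with an interval below 0. Of the 3 tested fibroblast and endothelial markers, the interval lay below 0 for 1, COL3A1 at -0.14. It held 0 for 2, COL1A2 at 0.40 (-0.04 to 0.85) and LUM at 0.03 (-0.04 to 0.10). The interval also lay below 0 for 1 of the 5 tested neuronal markers, GAD1, at -0.28 (-0.47 to -0.09) on 521 and 384 estimated counts, and held 0 for the other 4.

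The genes nearest to SCGN in level in both libraries were sought among those with a length and a mean of 1 CPM or more, by the distance between log2 CPM per kb over the 2 libraries. The 5 nearest were ZHX1, FAM208B, ZC3HAV1, FOXA3 and PSMD5, at distances of 0.00521 to 0.0497. ZHX1, a transcription factor gene, was at 11.7 CPM per kb in low and 14.1 in high glucose, and FOXA3, a forkhead factor gene of endoderm, at 11.6 and 13.8. None of the 5 is on the EF-hand lists. By median transcript length, 0 of them were among the 5 nearest.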

How the data were processed

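Polyadenylated RNA of hNCI-H716 cells was sequenced in 2 libraries, 1 in low and 1 in high glucose, assigned by their labels. The authors trimmed reads with Trim Galore 0.5.0, aligned them at 75 bases to GRCh38 with STAR 2.6.0, estimated counts with RSEM 1.3.1, removed genes of very low count and used edgeR for scaling (versions from the submitters' processing notes), and deposited CPM and log2 CPM for each library, of which the CPM were used. RSEM divides reads that match several genes. The table also holds the authors' mean, fold and log2 difference of the libraries, which were not used.

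The deposited CPM hold a prior of 0.25 counts, and rise in steps that give the CPM of 1 count and the library totals. Of the values under 10 CPM, 77.3% in low and 77.2% in high glucose were whole counts within 0.1 count. With 1 library per glucose concentration, no count model was run. Without the prior the CPM add to 1000000 in each library to within 1 CPM, so trimmed mean of M-values (TMM) factors, 0.998 in low and 1.002 in high glucose, were computed and applied. Wilson intervals (95%) were computed for CPM and exact binomial intervals for log2 ratios, both with the estimated counts taken as counts, without p-values. The steps were checked on simulated data. Software was Python 3.11.15, numpy 2.4.6, pandas 2.3.3, scipy 1.17.1, Biopython 1.88 and matplotlib 3.10.9.

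Lengths, coordinates and coding sequences came from GENCODE v29 on GRCh38, and 86.5% of the 13052 genes with a mean of 1 CPM or more had a length. A protein table had been planned, and the coding sequences were translated instead. Proteins were aligned globally with BLOSUM62.

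The 9 genes and the gene lists were chosen with earlier results of these data known. The genes named were the 9, from each list the 3 with the highest mean CPM per kb and up to 4 with a log2 ratio past 0.5 in size, the markers, and the 5 genes nearest to SCGN. NCALD, TMEM54 and other list genes outside these rules were named after their values were seen. Values were recomputed with median-of-ratios factors or library totals alone, without the prior, with a pseudocount of 1 CPM, by median transcript length or none, at a log2 ratio of 1, and under other filters on mean CPM. 4 genes of the fixed lists are not reported here.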

Additional observations from a re-analysis of the deposited data

How the results depend on the processing

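Of 95 values recomputed under an alternative, 71 stayed, 24 moved and 0 changed sign. A log2 ratio or level stayed if it lay within its counting interval, and a ratio, share, sum or percentile of levels if it lay within the limits that the intervals of those levels give. A number of genes stayed if it was within 1.5 times the main one, and an order if no gene changed place. The log2 ratios of SCGN and its 7 detected relatives were among those that stayed, in all 32 recomputations under library totals without TMM, median-of-ratios factors, removal of the prior and a pseudocount of 1 CPM, as were 24 of 24 levels under other scalings or without the prior. Apart from the pseudocount, these were weak checks. The factors were close to 1 and the prior was 0.25 counts, so the values could hardly leave their intervals. CALB1 stayed because its interval is wide, and with the pseudocount its ratio was 0.25 in place of 0.39, next to 0.26 for SCGN. The transcript length moved the levels most. With the median in place of the longest protein-coding transcript, the mean was 2.86 CPM per kb for CALB1, 766 for CALM2, 555 for CALM3, 48.2 for NCS1, 40.9 for HPCAL1 and 131 for VSNL1, by construction, since the median transcript is shorter. By this length 2 of the 8 genes changed place in the order (NCS1 and HPCAL1), and by CPM without length 3 did (NCS1, VSNL1 and HPCAL1). SCGN stayed sixth in both. Ratios, shares, sums and the percentile of levels were recomputed by the median length after the data had been seen. The ratio was 4.64 for SCGN over CALB1, 1.38 for CALM2 over CALM3, 3.63 for NCS1 over SCGN and 57.6 for CALM2 over SCGN, and SCGN over HPCA stayed. In low and high glucose, CALM2 gave 57.7% and 58.2% of its pair, and SCGN 82.9% and 81.7% of its sum with CALB1. The 5 neuronal calcium sensors summed to 355 and 387 CPM per kb, of which HPCA gave 1.92% and 1.52% and NCALD 38.6% and 39.1%, while the share of VSNL1 stayed. SCGN stood at the 44.1 percentile. The number of EF-hand genes past a log2 ratio of 0.5 in size, 0 of 50, stayed at 0 under library totals and median-of-ratios factors. These scalings moved the ratios too little to bring any gene, the largest ratio being 0.39, past this limit. A limit of 1, a mean of 10 CPM or more and a pseudocount of 1 CPM could only give 0 by construction. With no filter on low values it was 5 of 58, where 25.9% of all genes passed. These were KCNIP2, KCNIP3, CABP1, S100B and EFHD1, each with at most 7 estimated counts in either library and an interval that held 0. Intervals left out 0 for 20 of the 50 EF-hand genes (31.7% of all genes), and for 22 under library totals or median-of-ratios factors, which added SRI and RCN1. With a mean of 10 CPM or more they did so for 20 of 42, where 38.4% of all genes did. Depth limits CALB1 most among the 8 genes with a value, since its interval would also hold a log2 ratio of 1 or of 0. No paired analysis was possible because there was 1 library in low and 1 in high glucose.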
